A study of Homo sapiens with 12 samples.

Results

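A set of 10 surface or secreted molecules through which tumour cells address immune cells were followed at the RNA level in a cisplatin-sensitive ovarian cancer line, in its resistant derivative, and in both after paeonol (PAE), a plant phenol. The genes were CD274, PDCD1LG2, CD276, VTCN1, CD47, TNFSF13B, LGALS9, NECTIN2, PVR and TNFRSF14, found by exact match of their symbols in the count files (10 of 46350 named genes). The set was drawn up because CD274 and TNFSF13B rose with PAE in SKOV3/DDP cells. The values of that comparison are therefore a description, given without a test.

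The 12 RNA-seq libraries came in 4 groups of 3: SKOV3 (labelled cisplatin-sensitive, human epithelial ovarian cancer) untreated or with PAE, and SKOV3/DDP (labelled cisplatin-resistant, developed from SKOV3 per the study) untreated or with PAE. The labels gave no PAE dose or duration. The design text speaks of triplicates without naming separate cultures, so the p-values measure the spread between these libraries, which may be technical. Both are established lines, and each stands for 1 cell line only.

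As background, PD-L1 (CD274) and PD-L2 (PDCD1LG2) bind PD-1 on T cells and restrain them, and B7-H3 (CD276) and B7-H4 (VTCN1) are relatives with the same fold. CD47 binds SIRPα on macrophages and signals against engulfment. PVR and NECTIN2 are adhesion proteins that bind the inhibitory receptor TIGIT and the activating receptor CD226, galectin-9 (LGALS9) binds TIM-3, and HVEM (TNFRSF14) binds BTLA, CD160 and LIGHT. TNFSF13B encodes BAFF, a survival factor for B cells that is shed from the cell surface by furin-type cleavage. Interferon-γ, through JAK1, JAK2 and IRF1, is the best-known inducer of PD-L1.

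Total counts ranged from 14610008 to 18263479 per library. CPM values below are counts scaled to the library size (CPM) and by trimmed mean of M values (TMM) over the 12 libraries, and fold changes come from edgeR's fit on the counts. The 3 untreated SKOV3 libraries stood apart from the other 9. They held counts for 17951 to 18240 genes, against 21597 to 23194 in SKOV3 with PAE, and had TMM factors of 0.644 to 0.674. Between PAE-treated and untreated SKOV3, the median log2 fold change was 2.47 for genes below the median GC content of 49.0% and −1.48 for genes above it. In SKOV3/DDP the same medians were 0.11 and −0.15. Results against untreated SKOV3 are therefore given also with the GC and length trend removed. Since no other library represents untreated SKOV3, that trend and the comparison cannot be told apart. Keratins KRT8 and KRT18 were abundant in all 4 groups, with the lowest group mean 485 CPM. Other epithelial and ovarian markers differed between the untreated lines, given here as SKOV3 and then SKOV3/DDP. KRT19 had 7.66 and 1349 CPM, EPCAM 1.26 and 289 CPM, and MSLN 149 and 388 CPM. ERBB2 had 306 and 96.5 CPM, MUC16 2.09 and 0.390 CPM, and the ovarian marker PAX8 29.7 and 4.13 CPM. With the trend removed each kept its direction. WT1 was at 0.103 CPM or less. The leukocyte marker PTPRC was at or near 0 in every group, with at most 2 counts per group. The summed level of the 9 leukocyte markers, most of it CD14, was 65.4 to 73.7 CPM in SKOV3, 23.6 to 41.2 CPM in SKOV3 with PAE, and 2.86 to 5.11 CPM in the 6 SKOV3/DDP libraries.

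The comparison that chose the set was PAE against no treatment in SKOV3/DDP cells. CD274 and TNFSF13B, both scarce in untreated SKOV3/DDP, were each over 10 CPM in every PAE-treated library, while CD47 and NECTIN2 were lower with PAE and PVR was higher. CD274 lies at chr9:5450542-5470554 on the plus strand (GRCh38). It had 0.577, 1.64 and 1.16 CPM in the untreated libraries and 11.2, 11.1 and 14.4 CPM in the treated ones, a fitted 10.8-fold difference (log2 3.44 ± 0.39, standard error). The groups lay far apart. TNFSF13B lies at chr13:108268240-108308484 on the plus strand. It had 0.577, 1.20 and 1.41 CPM without PAE and 26.3, 25.8 and 21.5 CPM with it, a fitted 23.1-fold difference (log2 4.53 ± 0.38). These levels rested on 52 and 1477 counts summed over the groups.

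Both genes have letters in their promoter windows that resemble sites for interferon-induced factors, which is why the windows are shown. They are RefSeq sequences of GRCh38.p14, from 250 bases before to 50 bases after an annotated start, 5′ to 3′ on the plus strand. Capitals mark, in order, a pair of overlapping IRF-type matches on the minus strand, a GAS match and a GC box in CD274, and 1 IRF-type match in TNFSF13B.
CD274, chr9:5450292-5450591: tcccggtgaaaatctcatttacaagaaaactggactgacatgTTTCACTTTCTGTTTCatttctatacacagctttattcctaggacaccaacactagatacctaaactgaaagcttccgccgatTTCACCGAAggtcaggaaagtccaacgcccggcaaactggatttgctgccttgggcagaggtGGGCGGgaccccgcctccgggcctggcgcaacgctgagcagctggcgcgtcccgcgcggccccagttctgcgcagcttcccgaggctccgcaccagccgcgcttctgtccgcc
TNFSF13B, chr13:108269379-108269678: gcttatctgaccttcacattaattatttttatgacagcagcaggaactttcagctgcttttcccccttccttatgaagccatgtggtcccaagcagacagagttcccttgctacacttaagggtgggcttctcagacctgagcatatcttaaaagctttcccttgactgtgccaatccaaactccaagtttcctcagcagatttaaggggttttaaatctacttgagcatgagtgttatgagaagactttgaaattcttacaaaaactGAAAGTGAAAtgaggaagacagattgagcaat

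The IRF-type search used GAAANNGAAA on both strands, the GAS search TTCNNNGAA and the GC box search GGGCGG. Of 35116 RefSeq promoters of the same length, 3.57% held the IRF-type letters, 7.66% the GAS letters and 45.0% the GC box. The CD274 matches stood at −208 to −199 and −202 to −193 (IRF type), −125 to −117 (GAS) and −63 to −58 (GC box), counted so that the start base is 1 and the base before it is −1. In TNFSF13B the letters GAAAGTGAAA stood at 19 to 28 from this start and at −71 to −62 from a second annotated RefSeq start. Both starts lie inside the gene as the count files delimit it. Of the 9 members with a promoter in the table, 3 held an IRF-type match, the other being LGALS9, and CD274 was the only 1 with a GAS match. CD276, CD47 and NECTIN2 also held GC boxes, VTCN1 an AP-1 match (TGANTCA, 7.71% of promoters) and TNFRSF14 a match to the NF-kB motif (5.91%). A match is a string of letters in a window, and binding was not measured.

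**Figure D1:**
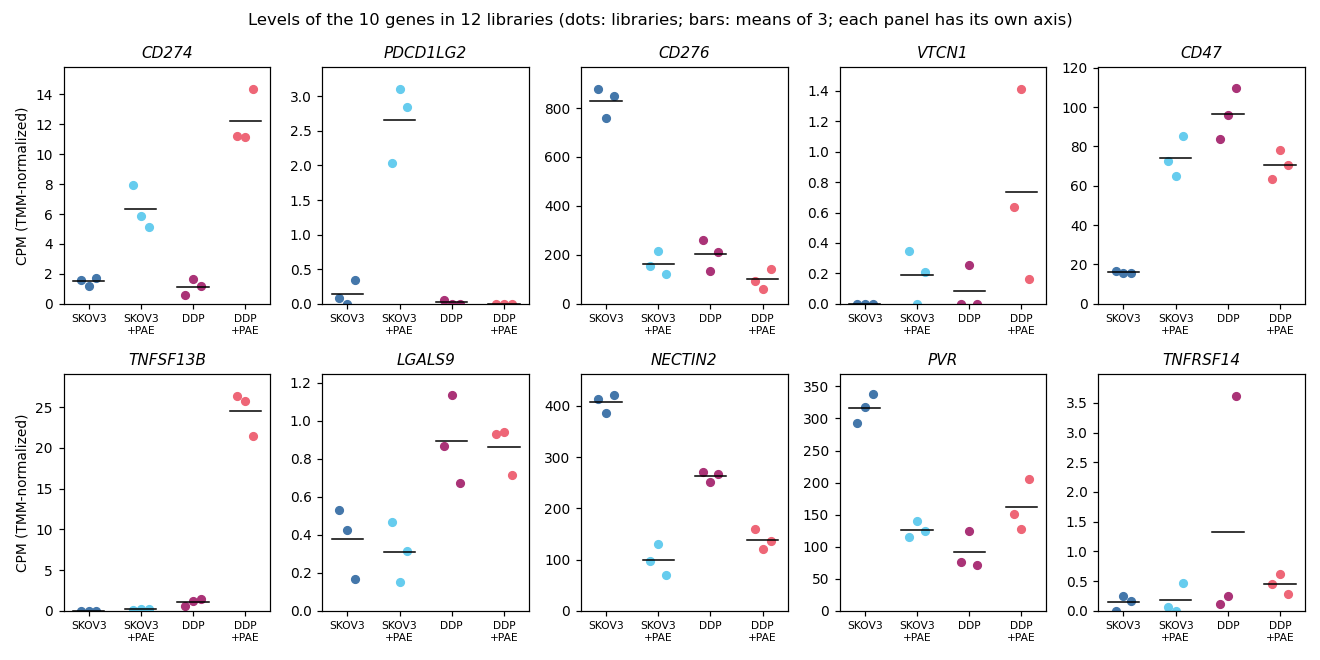
Level of each of the 10 genes (TMM-normalized CPM, linear axis from 0, a separate scale per panel) in the 12 libraries: SKOV3, SKOV3 with PAE, SKOV3/DDP (DDP) and SKOV3/DDP with PAE; dots are libraries and bars the means of 3. TNFSF13B was over 20 CPM in SKOV3/DDP with PAE alone, PDCD1LG2 over 2 CPM in SKOV3 with PAE alone, and the untreated SKOV3 libraries held the most CD276, NECTIN2 and PVR and the least CD47.

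The remaining members moved less with PAE in SKOV3/DDP. PVR had 76.0, 125 and 71.6 CPM without PAE and 151, 127 and 206 CPM with it (log2 0.83 ± 0.24), with a gap of only 125 against 127 between the nearest libraries. NECTIN2 went the other way, from 272, 252 and 267 CPM to 159, 120 and 136 CPM (log2 −0.93 ± 0.22). CD47 had 84.0, 96.0 and 110 CPM without PAE and 63.3, 78.2 and 70.6 CPM with it (log2 −0.45 ± 0.19). NECTIN2 and CD47 did not overlap between the groups, so that PVR and NECTIN2, which share the receptor TIGIT, were on opposite sides. CD276 was lower on average with PAE, 99.8 ± 41.5 against 202 ± 65.1 CPM (SD, n = 3), but its libraries overlapped.

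A further 4 members were scarce in SKOV3/DDP whatever the treatment. LGALS9 had 0.892 ± 0.233 CPM without PAE and 0.862 ± 0.127 CPM with it, and its reads may be split with near-identical galectin-9 copies, so its level is uncertain. VTCN1 had 0, 4 and 0 counts without PAE and 13, 30 and 3 with it. TNFRSF14 had 2, 4 and 59 counts without PAE and 9, 13 and 5 with it, so that 1 untreated library held most of its signal. PDCD1LG2 had 1 count in the 3 untreated libraries and 0 in the treated ones, where 3 counts would be 0.0501 CPM. PD-L2 RNA was thus not detectable with PAE at this depth while PD-L1 RNA was at 12.2 CPM. Apart from CD274 and TNFSF13B, which were chosen for rising here, 1 of the 8 members lay higher without overlap, 2 lay lower and 5 overlapped. Of these 8, 6 entered the fit, while VTCN1 and TNFRSF14 were too low. Over all 17133 genes tested, 21.4% lay higher and 23.7% lower without overlap, and at an adjusted p under 0.05 26.4% were called, 11.8% higher and 14.7% lower.

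In SKOV3 cells the low-GC members were higher and the high-GC members lower with PAE. CD274, PDCD1LG2 and CD47, with transcripts of 38.4% to 41.9% GC, rose. CD276, NECTIN2 and PVR, at 56.5% to 61.0% GC, fell. The comparison shares no library with the one that chose the set, and 6 of the 7 members tested passed, 3 higher and 3 lower, against 75.3% of all 17133 genes (42.6% higher, 32.7% lower). With scaling by library size, 9058 genes were higher and 3834 lower in place of 7292 and 5603. TNFSF13B is not among the 7: it entered the fit only through the SKOV3/DDP libraries with PAE that chose the set, so its test is not given. PDCD1LG2 is among them but entered only through the treated SKOV3 libraries, so it could only have been called higher. A fit of the 6 SKOV3 libraries alone tested 6 members, LGALS9 being too low, and called all 6, of which 3 were higher and 3 lower. For the 7, the median change was −0.28 on the log2 scale, beside 0.48 over all genes. VTCN1, with 10 counts in the treated group and 0 in the untreated, and TNFRSF14, with 10 and 5 counts, were too low to be tested.

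CD274 had 1.60, 1.19 and 1.70 CPM without PAE and 7.96, 5.84 and 5.16 CPM with it, a 4.21-fold rise (log2 2.07 ± 0.38, adjusted p = 0.000137 quasi-likelihood test in edgeR, adjusted over all genes by Benjamini and Hochberg, as for all adjusted p-values here). All 3 treated libraries were above the untreated ones. With the GC and length trend removed the value was −0.54 (adjusted p = 0.215), so the call for CD274 in SKOV3 ended with that setting. PDCD1LG2 at chr9:5510438-5571282, next to CD274, had 1, 0 and 4 counts without PAE and 35, 61 and 54 counts with it, or 2.03, 3.10 and 2.84 CPM. Its rise (log2 4.14 ± 0.78, adjusted p = 0.000281) was 2.09 with the trend removed (adjusted p = 0.048). PDCD1LG2 passed the filter on low counts only through these treated libraries, so a call could only have been a rise. The p-values do not allow for that.

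CD47 (chr3:108043091-108094200, minus strand) had 16.5, 15.8 and 15.8 CPM without PAE and 72.3, 65.0 and 85.3 CPM with it, a 4.63-fold rise (log2 2.21 ± 0.20, adjusted p = 1.03e-07). With the trend removed it reversed to −1.05 (adjusted p = 0.000888), beside a median of 3.18 without that setting over the 1124 genes of like GC content. TNFSF13B had no count in untreated SKOV3 and 2, 3 and 4 counts with PAE. The counts put it at least 1.87-fold higher, against a floor of 3 counts over the group. BAFF RNA in treated SKOV3 was 0.160 ± 0.048 CPM (SD, n = 3), next to 24.5 ± 2.65 CPM in treated SKOV3/DDP.

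CD276 (chr15:73683966-73714518, plus strand) was the most abundant member in SKOV3, with 879, 760 and 848 CPM. With PAE it had 153, 217 and 122 CPM, and it fell by 2.34 ± 0.33 on the log2 scale (adjusted p = 9.92e-06). NECTIN2 (chr19:44846297-44889223, plus strand) went from 413, 387 and 422 CPM to 97.0, 131 and 68.9 CPM (log2 −2.04 ± 0.23, adjusted p = 1.02e-06). PVR (chr19:44643910-44666162, plus strand) went from 294, 318 and 338 CPM to 114, 140 and 125 CPM (log2 −1.33 ± 0.25, adjusted p = 0.00016). All 3 fell without overlap between groups. With the trend removed none of the 3 passed, at −0.26 (adjusted p = 0.470) for CD276, 0.11 (0.589) for NECTIN2 and 0.14 (0.613) for PVR. PVR also lost its call with scaling by library size (−0.44, adjusted p = 0.0904). PVR overlaps LOC107985305 on the other strand, which had a mean of 1.88 CPM, and the strand of counting was not given. LGALS9 did not pass (log2 −0.28 ± 0.62, adjusted p = 0.702).

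**Figure D2:**
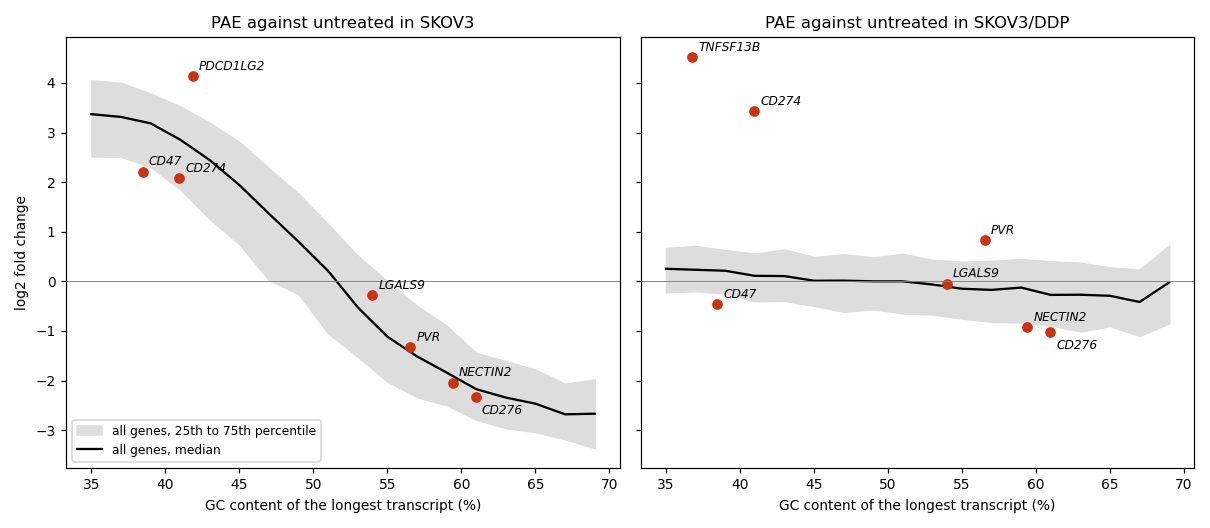
Log2 fold change of PAE against untreated (y) by GC content of the longest transcript in percent (x), in SKOV3 (left) and SKOV3/DDP (right); red dots are members, the line is the median of all genes per 2% of GC and the band runs from the 25th to the 75th percentile. In SKOV3 the members other than PDCD1LG2 lie within or near the band, CD274 at 2.07 and CD276 at −2.34. In SKOV3/DDP CD274 (3.44) and TNFSF13B (4.53), which were chosen for rising there, lie far above it. TNFSF13B is left out on the left because untreated SKOV3 had no count, and PDCD1LG2 on the right because it had 1.

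The direction with PAE differed between the lines for CD47 and PVR. CD47 was 2.21 higher on the log2 scale in SKOV3 and 0.45 lower in SKOV3/DDP, and its treated levels were alike, 74.2 ± 10.3 and 70.7 ± 7.46 CPM (SD, n = 3). PVR was 1.33 lower in SKOV3 and 0.83 higher in SKOV3/DDP. With the trend removed each had 1 sign in both lines, CD47 at −1.05 and −0.63 and PVR at 0.14 and 0.99. These differences of effect include the comparison that chose the set and were not tested. Both CD276 and NECTIN2 were lower with PAE in each line.

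**Figure D3:**
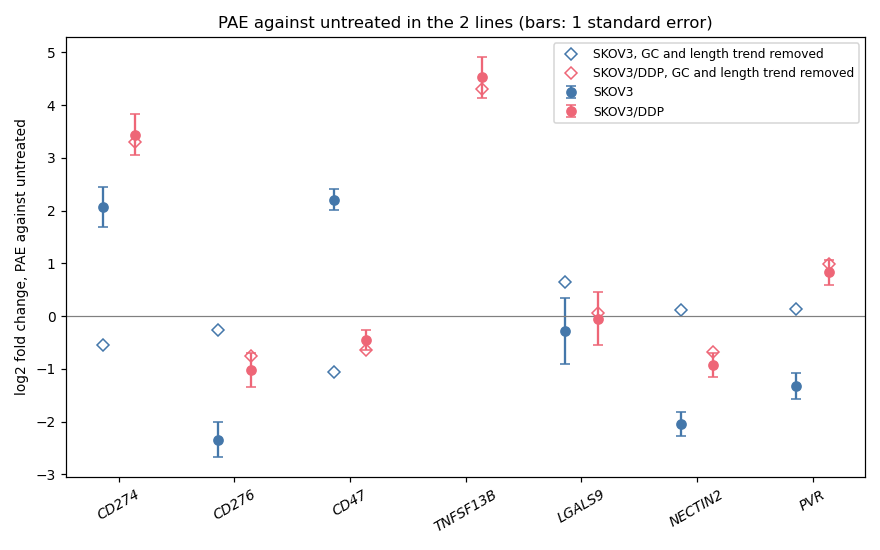
Log2 fold change of PAE against untreated (y) for 7 members in SKOV3 (blue) and SKOV3/DDP (red); filled circles are the fitted values with bars of 1 standard error and open diamonds the values with the GC and length trend removed. In SKOV3 the diamonds move CD47 from 2.21 to −1.05 and CD276 from −2.34 to −0.26, and in SKOV3/DDP they stay near the circles; TNFSF13B in SKOV3 and PDCD1LG2, VTCN1 and TNFRSF14 are not drawn because a group had too few counts.

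With PAE in both lines the GC split was nearly absent (median log2 fold change 0.07 below and 0.02 above the median GC content), and few members apart from CD274 and TNFSF13B differed. Of these PDCD1LG2 was the clearest, at 2.66 ± 0.555 CPM in SKOV3 and 0 counts in all 3 SKOV3/DDP libraries, at least 53.5-fold lower in the resistant line (adjusted p = 2.76e-05). LGALS9 was higher in SKOV3/DDP, with 0.932, 0.940 and 0.715 CPM against 0.465, 0.152 and 0.316 CPM (log2 1.47 ± 0.55, adjusted p = 0.0344). Apart from CD274 and TNFSF13B, whose treated SKOV3/DDP libraries chose the set, these 2 were the members called of 6 tested, 1 higher and 1 lower, beside 54.5% of all genes (27.5% higher, 27.1% lower). PDCD1LG2 had passed the filter on low counts only through SKOV3 with PAE, and LGALS9 only through SKOV3/DDP libraries. A call of either could therefore only have had this direction, and the p-values do not allow for that. The LGALS9 call was lost when any 1 of 4 libraries was left out (replicate 2 or 3 of SKOV3 with PAE, replicate 1 or 2 of SKOV3/DDP with PAE), with adjusted p-values of 0.0802 to 0.137. It was also lost with DESeq2 (0.0522) and without a filter on low counts (0.110).

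CD47 did not pass (log2 −0.07 ± 0.19, adjusted p = 0.774), and neither did PVR (0.35 ± 0.24, 0.232), CD276 (−0.72 ± 0.31, 0.0665) or NECTIN2 (0.48 ± 0.22, 0.0796). With the trend removed CD276 and NECTIN2 passed, at −0.73 (adjusted p = 0.0406) and 0.60 (adjusted p = 0.00637). As a description, CD274 was 1.94-fold and TNFSF13B 146-fold higher in treated SKOV3/DDP than in treated SKOV3, the latter resting on 9 counts in SKOV3 (ratio of normalized counts 153, 95% counting interval 80.5 to 336).

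Against untreated SKOV3, untreated SKOV3/DDP had more CD47 and less CD276, PVR and NECTIN2. CD47 was 5.78-fold higher (log2 2.53 ± 0.18, adjusted p = 4.4e-06), with 16.0 ± 0.422 CPM in SKOV3 and 96.6 ± 12.9 CPM in SKOV3/DDP (SD, n = 3). CD276 fell by 2.10 ± 0.25 on the log2 scale (adjusted p = 6.06e-05), PVR by 1.86 ± 0.24 (adjusted p = 0.000102) and NECTIN2 by 0.69 ± 0.13 (adjusted p = 0.00118). These 4 were the members called of 5 tested apart from CD274 and TNFSF13B, against 84.7% of all 15323 genes, 46.1% of them higher and 38.5% lower.

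The GC split was as wide here, 2.25 below and −1.55 above the median. With the trend removed CD47 was at −0.52 (adjusted p = 0.0638), CD276 at −0.22 (0.416), PVR at −0.44 (0.105) and NECTIN2 reversed to 1.40 (adjusted p = 3.77e-05). NECTIN2 was also at 0.0618 with scaling by library size (adjusted p = 0.734). LGALS9 missed the threshold (log2 1.17 ± 0.50, adjusted p = 0.0559) and passed with the trend removed (2.17, adjusted p = 0.00427). PDCD1LG2 (1 count against 5), VTCN1 (4 against 0) and TNFRSF14 (65 against 5, of which 59 in 1 library) were too low to be tested. CD274 was at like levels in the untreated lines, 1.49 ± 0.266 and 1.13 ± 0.533 CPM, and its libraries overlapped. Its fitted log2 difference of −0.47 ± 0.45 was 0.25 with scaling by library size and −2.82 with the trend removed. TNFSF13B was listed at 0 counts in SKOV3 and had 10, 19 and 23 counts in SKOV3/DDP, at least 12.2-fold higher. Both are given without a test because the untreated SKOV3/DDP libraries took part in choosing the set. In bulk RNA a change in the share of cells with a transcript and a change in RNA per cell cannot be told apart.

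Per kilobase of gene length as the files give it, CD276 led in SKOV3 (218 ± 16.3 CPM per kb), followed by NECTIN2 (120 ± 5.31), PVR (52.9 ± 3.71), CD47 (1.02 ± 0.027) and CD274 (0.399 ± 0.071), each apart from the next in all libraries. Below these, LGALS9, PDCD1LG2, TNFRSF14, TNFSF13B and VTCN1 were at 0.117 CPM per kb or less and overlapped their neighbours in the order. In SKOV3/DDP with PAE the order was NECTIN2 (40.6 ± 5.69 CPM per kb), PVR (27.0 ± 6.79), CD276 (26.3 ± 10.9), TNFSF13B (5.88 ± 0.633), CD47 (4.52 ± 0.477) and CD274 (3.26 ± 0.489), where PVR and CD276 overlapped. By this length TNFSF13B was at place 8 of 10 in SKOV3/DDP without PAE, where it overlapped LGALS9, and at place 4 with PAE, above CD47. These places depend on the length used. With the longest transcript TNFSF13B came next after CD47 in both groups. It was at 0.406 and CD47 at 14.2 CPM per kb without PAE, and at 9.39 and 10.4 with it. Without PAE it was then above TNFRSF14 (0.312), CD274 (0.309) and LGALS9 (0.286).

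Among 10 B7 and nectin relatives, 7 were tested, and in SKOV3/DDP 1 rose and 2 fell with PAE, beside 11.8% and 14.7% of all genes. NCR3LG1 (B7-H6, the ligand of the natural killer receptor NKp30) rose from 7.15, 10.2 and 6.43 CPM to 19.5, 21.3 and 62.5 CPM (log2 2.12 ± 0.48, adjusted p = 0.00587). Its treated mean of 34.4 CPM was 20.4 CPM without replicate 3, and the log2 fold change without that library was 1.41. HHLA2, a B7 member, fell from 2.77 to 0.127 CPM (log2 −4.33 ± 0.79, adjusted p = 0.00204), and CEACAM1, an adhesion protein that binds itself on neighbouring cells, from 67.4 to 24.0 CPM (log2 −1.49 ± 0.26, adjusted p = 0.00115). HHLA2 passed the filter on low counts only through untreated SKOV3/DDP (67, 26 and 46 counts), so it could only have been called lower. In SKOV3 3 rose and 2 fell (0 and 3 with the trend removed), beside 42.6% and 32.7% of all genes. ICOSLG, the ligand of the costimulatory receptor ICOS, fell from 23.7 to 2.56 CPM there (log2 −3.21 ± 0.44, adjusted p = 7.27e-06; −1.75 with the trend removed). The costimulatory ligands CD80, with at most 1 count per group, and CD86, with 0 in all 12 libraries, are named after their values were seen.

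Of 17 other TNF superfamily ligands, 9 were tested, and in SKOV3/DDP 0 rose and 4 fell with PAE by edgeR's test at adjusted p under 0.05. At an unadjusted p under 0.05 and with DESeq2 the count of those that rose was 0 as well. Over all genes 11.8% were called higher and 14.7% lower. TNFSF13B was chosen for its rise here, so it is not set against them. TNFSF15 (TL1A) fell from 5.45 to 0.619 CPM (log2 −3.11 ± 0.70, adjusted p = 0.00645) and TNFSF12 (TWEAK) from 13.4 to 5.19 CPM (log2 −1.37 ± 0.25, adjusted p = 0.00163). EDA fell by 1.11 (adjusted p up to 0.145 when 1 of 4 libraries was left out) and CD70 by 1.10 on the log2 scale. The CD70 libraries overlapped, its adjusted p of 0.0466 rose to 0.0583 with the trend removed (−0.85) and to as much as 0.183 when 1 of 5 libraries was left out. The median of the 9 was −1.10, beside 0 over all genes. In SKOV3 with PAE 4 rose and 3 fell (5 and 0 with the trend removed), beside 42.6% and 32.7% of all genes. TNFSF10 (TRAIL, a death ligand) rose there from 0.461 to 22.8 CPM (log2 5.61 ± 0.56, adjusted p = 2.72e-07, and 3.45 with the trend removed). TNFSF10 passed the filter on low counts only through SKOV3 with PAE (382, 573 and 325 counts), so it could only have been called higher. TRAIL stayed at 0.115 CPM or less in every SKOV3/DDP library. CD70, the ligand of CD27, had 381 CPM in untreated SKOV3 and 1.26 CPM in untreated SKOV3/DDP (log2 −8.30 ± 0.29, adjusted p = 6.75e-07; −5.25 with the trend removed).

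Among 17 receptors of the members or of their relatives, the counter-receptor of CD47 stood out between the lines. SIRPA had 59.9, 55.6 and 54.3 CPM in SKOV3, 32.2, 34.4 and 28.5 CPM with PAE, and 0 counts in all 6 SKOV3/DDP libraries, at least 934-fold lower in the untreated comparison (adjusted p = 1.39e-06). SIRPA passed the filter of that comparison only through SKOV3, so it could only have been called lower. NECTIN3, a partner of NECTIN2 and PVR in adhesion, was likewise at 0 counts in all 6 SKOV3/DDP libraries, beside 3.14 CPM in SKOV3 and 11.8 CPM in SKOV3 with PAE. That difference with PAE (log2 1.91, adjusted p = 0.000651) reversed to −0.94 (adjusted p = 0.0407) with the trend removed. In SKOV3/DDP with PAE 2 of 9 receptors tested rose and 0 fell by edgeR's test at adjusted p under 0.05, with 0 lower also at an unadjusted p under 0.05 and with DESeq2. Over all genes 11.8% were called higher and 14.7% lower. HAVCR2 (TIM-3, the receptor of galectin-9) rose from 0.178 to 2.23 CPM (log2 3.58 ± 0.70, adjusted p = 0.00315). HAVCR2 passed the filter on low counts only through these treated libraries (44, 59 and 32 counts), so it could only have been called higher. RGMB, a BMP co-receptor that also binds PD-L2, rose from 15.2 to 36.2 CPM (log2 1.25 ± 0.26, adjusted p = 0.00316). Of the BAFF receptors, TNFRSF13C had 0.844 CPM without and 1.55 CPM with PAE in SKOV3/DDP, and TNFRSF13B had 0 counts in all 12 libraries.

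Of 10 regulators of PD-L1 tested, 3 rose and 2 fell with PAE in SKOV3/DDP (5 and 3 with the trend removed). Over all genes 11.8% were called higher and 14.7% lower. IFNGR2, a subunit of the interferon-γ receptor, fell from 19.1 to 7.19 CPM (log2 −1.41 ± 0.32, adjusted p = 0.00575). JAK2 rose from 19.3 to 39.7 CPM (log2 1.04 ± 0.31, adjusted p = 0.0239) and STAT3 from 67.1 to 122 CPM (log2 0.86 ± 0.29, adjusted p = 0.0425). The other called genes were IRF1, which rose by 0.61 ± 0.21 on the log2 scale (adjusted p = 0.0443), and CMTM6, which stabilizes PD-L1 protein and fell by 0.67 ± 0.23 (adjusted p = 0.0458). The IFNGR2 call stayed whichever library was left out, whereas the calls of JAK2, STAT3, IRF1 and CMTM6 were lost without any 1 of 3 to 5 of the 6 libraries, with adjusted p-values up to 0.0727, 0.179, 0.162 and 0.196.

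In SKOV3 6 of the 10 rose and 2 fell with PAE (5 and 2 with the trend removed), where 42.6% of all genes were called higher and 32.7% lower. IFNGR1 rose from 12.1 to 112 CPM (log2 3.22 ± 0.25, adjusted p = 2.83e-08; 0.76 with the trend removed) and CMTM6 from 14.2 to 185 CPM (3.70 ± 0.26, adjusted p = 1.73e-08; 0.83). IRF1 went against these and fell by 1.43 ± 0.21 (adjusted p = 1.73e-05; −1.14). With PAE in both lines IRF1 was also lower in SKOV3/DDP, at 28.8 against 61.7 CPM (log2 −1.10 ± 0.21, adjusted p = 0.000455).

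Of 5 genes whose products act on the members, 1 fell and 0 rose in SKOV3/DDP with PAE by edgeR's test at adjusted p under 0.05 (14.7% and 11.8% of all genes), and 0 rose at an unadjusted p under 0.05 and with DESeq2. This was THBS1 (thrombospondin-1, a ligand of CD47), which fell from 222 to 54.6 CPM (log2 −2.02 ± 0.38, adjusted p = 0.00184) and rose in SKOV3 from 45.5 to 252 CPM (2.47 ± 0.39, adjusted p = 3.3e-05; 0.61 with the trend removed). FURIN, which can cleave BAFF, was at 1310 CPM in untreated SKOV3 and 169 CPM in untreated SKOV3/DDP (log2 −3.02 ± 0.21, adjusted p = 3.88e-06; −1.30 with the trend removed).

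CD274 and TNFSF13B were chosen for rising in SKOV3/DDP with PAE. That their differences were larger than those of the neighbours tested is therefore a description, not a result about the loci. Of 23 genes that start within 0.5 Mb of either, PDCD1LG2 apart, 9 were tested. By edgeR's test at adjusted p under 0.05, 1 rose and 0 fell (1 lower at an unadjusted p under 0.05, 0 with DESeq2). That test called 11.8% of all genes higher and 14.7% lower, and 9 genes are too few to tell these counts from that background. The median log2 fold change of the 9 neighbours was 0.17. The neighbour that rose was JAK2, which starts 466152 bases before CD274 and whose call was lost without any 1 of 3 libraries (adjusted p up to 0.0727). PLGRKT, 92576 bases before CD274, was at −0.67 ± 0.31 (adjusted p = 0.122) and RIC1, 178488 bases after it, at 0.58 ± 0.32 (adjusted p = 0.199). Beside TNFSF13B, ABHD13 was at 0.43 ± 0.24 (adjusted p = 0.205), LIG4 at −0.40 ± 0.23 (adjusted p = 0.220) and MYO16 at −1.31 ± 0.72 (adjusted p = 0.197). None of these 5, named after their values were seen, passed. With the trend removed LIG4 passed, at −0.68 (adjusted p = 0.0223), so that 1 neighbour rose and 1 fell.

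**Figure D4:**
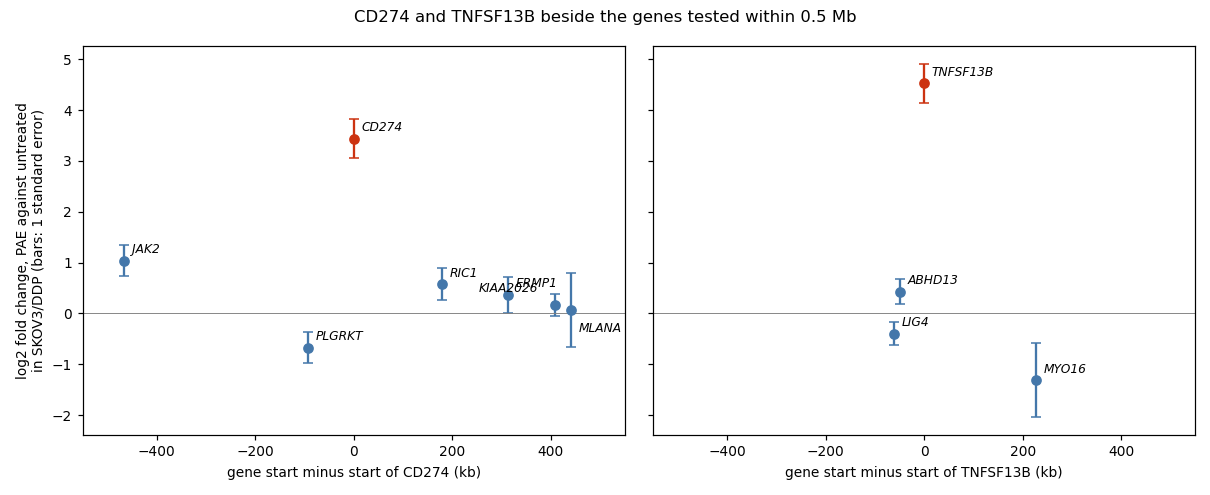
Log2 fold change of PAE against untreated in SKOV3/DDP (y, bars of 1 standard error) by distance of gene start from CD274 (left) or TNFSF13B (right) in kb (x). CD274 at 3.44 and TNFSF13B at 4.53 (red), which were chosen for rising here, stand above the 9 neighbours tested (blue), which lie between −1.31 and 1.04.

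Over the 12 libraries, the log2(CPM + 1) profile of CD274 was most like those of SLC25A33 (Pearson r 0.968), TERF2IP (0.952) and FAM241A (0.952) among 12644 protein-coding genes whose mean reached 1 CPM. SLC25A33 had group means of 16.1, 32.4, 16.8 and 49.7 CPM in the order SKOV3, SKOV3 with PAE, SKOV3/DDP and SKOV3/DDP with PAE, beside 1.49, 6.32, 1.13 and 12.2 CPM for CD274. TNFSF13B was most like CCDC168 (0.988), H2AC15 (0.978) and CHRM3 (0.978). CHRM3, a muscarinic acetylcholine receptor, had group means of 0, 0, 0.651 and 10.2 CPM. These genes were picked for their likeness from many, and the 12 points share groups and scaling, so the values are a description.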

How the data were processed

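RNA of 12 samples was sequenced after poly-T selection with the NEBNext Ultra kit. The deposited files, per the file headers, hold whole-number gene counts without normalization for 47219 loci, with coordinates that match GRCh38, of which 869 had no name (0.126% to 0.678% of counts) and were left out. The submitters' processing notes list HISAT2 2.0.5, StringTie 1.3.3b, DESeq2 and edgeR. The counting program, strand and annotation release are not given in the sources used here.

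Counts were filtered with filterByExpr, TMM-scaled and compared by the quasi-likelihood test in edgeR 4.0.16 (R 4.3.3), tested on simulated data. Untreated lines were compared in a fit of 6 libraries, the other contrasts in 1 fit of 12. Adjusted p was called under 0.05. A gene that passed the filter only through 1 group of a comparison could be called in only 1 direction, which the p-values do not allow for. Alternatives were DESeq2 1.42.0, scaling by library size, no filter, other sets of libraries, a replicate block, leaving out each library, and removal of a spline trend on GC content and length. GC content, from GENCODE, was known for 91.5% to 94.0% of genes.

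Members and lists were chosen with earlier results of these data known. Named genes were all 10 members, per list and comparison up to 4 called genes with the largest fold change and at least 1 CPM, the 3 genes most like CD274 and TNFSF13B, and neighbours within 0.5 Mb. A few were named after their values were seen, and some list genes are not reported here. For a group with no count, a fold was bounded with 3 counts over the group. Counting intervals (95%) cover counting error only.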

Additional observations from a re-analysis of the deposited data

Results flagged for a closer look

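Among the members, lists, markers and neighbours, 7 genes were lower with PAE in every library of 1 line and higher in every library of the other. The difference between the lines was not tested for any of them. Over all genes, 21.4% lay higher and 23.7% lower without overlap with PAE in SKOV3/DDP. The share of all genes with opposite directions was not counted, so the 7 have no background to stand against. CD47 had a log2 fold change of 2.21 in SKOV3 and −0.45 in SKOV3/DDP, and PVR of −1.33 and 0.83. CEACAM1 was at 1.52 and −1.49, IFNGR1 at 3.22 and −0.49, THBS1 at 2.47 and −2.02, RELA at −2.03 and 0.27, and EPCAM at 2.32 and −0.65. All SKOV3 values rest on the 3 untreated SKOV3 libraries in which genes split by GC content. With the GC and length trend removed CD47 was at −1.05 in SKOV3 and −0.63 in SKOV3/DDP, and PVR at 0.14 and 0.99, so the opposite signs of both were lost. The other 5 kept opposite signs, with IFNGR1 at 0.76 and −0.62, RELA at −0.44 and 0.45, EPCAM at 1.77 and −0.63, CEACAM1 at 0.40 and −1.50, and THBS1 at 0.61 and −2.06, where CEACAM1 (adjusted p = 0.248) and THBS1 (adjusted p = 0.117) did not pass in SKOV3. Without that setting IFNGR1 (adjusted p = 0.119), RELA (0.379) and EPCAM (0.106) did not pass in SKOV3/DDP.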

How the results depend on the processing

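The widest shifts came with removal of the GC and length trend. In SKOV3 it called 7854 genes in place of 12895 and 2 members (PDCD1LG2 and, reversed, CD47) in place of 6, and between untreated lines 2 members in place of 4. It reversed CD47 (−0.52) and NECTIN2 (1.40) between untreated lines, and with PAE in SKOV3 CD274 (−0.54), CD47 (−1.05), LGALS9 (0.65), NECTIN2 (0.11) and PVR (0.14). With PAE in both lines it called 4 members instead of 2. Scaling by library size reversed CD274 (0.25) and NECTIN2 (0.0618) between untreated lines and LGALS9 with PAE in SKOV3 (0.59) and in SKOV3/DDP (0.14), where the trend removal gave 0.0584. It moved the median of genes with a GC value from 0.45 to 1.36 for PAE in SKOV3, from 0.39 to 1.16 between untreated lines and from 0 to 0.16 for PAE in SKOV3/DDP.

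With PAE in both lines DESeq2 called 1 member and leaving out libraries 1 to 3. For PAE in SKOV3/DDP, leaving out libraries gave 2815 to 4349 genes called (4526 with all), the lowest without SKOV3/DDP replicate 1 and 2837 without replicate 3. Members past an absolute log2 fold change of 1 (3 with all) numbered 2 to 5, with 5 without SKOV3/DDP replicate 2. CD274 stayed between 3.15 and 3.81 and TNFSF13B between 4.26 and 4.81. Values near 0 reversed when libraries were left out: LGALS9 ranged from −0.660 to 0.0572 with PAE in SKOV3 and from −0.181 to 0.162 in SKOV3/DDP, and CD47 from −0.169 to 0.0351 with PAE in both lines. The cause was not tested.

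Same-numbered libraries deviated with correlations averaging −0.106 to 0.0509 per pair of groups, so the numbers did not pair the samples. With a replicate block 6 members stayed called for PAE in SKOV3 and 4 between untreated lines, and 1 instead of 2 with PAE in both lines, where LGALS9 had an adjusted p of 0.0539. Genes called with the block were 12701, 8959 and 3997 for PAE in SKOV3, for both lines with PAE, and for PAE in SKOV3/DDP. Of all summary values recomputed, 85 kept within 1.5 times and 11 did not.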
